A study of Homo sapiens with 6 samples.

Results

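Transcripts of 4 genes with roles in nerve cells or in neuropeptide signalling were followed in HCT116 colorectal cancer cells with and without p21: ISL1, ACHE, DPYSL3 and RAMP1. They are 4 of the 770 genes of the NanoString PanCancer Progression Panel, and they were chosen because they moved in opposite directions between the lines. In the deposited values, ISL1 and ACHE were higher in p21-/- cells than in WT cells, by 2.66 and 0.67 on the log2 scale. DPYSL3 and RAMP1 were lower there, by -3.75 and by at least 12.6-fold. Since the genes were selected on this contrast, their differences are given below as a description, without a test.

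HCT116 is an established human colorectal carcinoma cell line, here called WT. The p21-/- cells are a derivative lacking a working CDKN1A, which encodes p21, an inhibitor of the cell cycle. They represent 1 knockout line, so a property of that line and the loss of p21 cannot be told apart. Both lines were left untreated, and 3 biological replicates of each were measured from total RNA. The labels give RPMI medium with 10% fetal bovine serum for both lines, whereas the study's methods give DMEM for the p21-/- cells, in which case medium and genotype cannot be told apart.

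All 4 genes have well-known work in the nervous system. ISL1 encodes a LIM-homeodomain transcription factor that directs the differentiation of motor neurons, sensory neurons and pancreatic islet cells. ACHE encodes acetylcholinesterase, the enzyme that hydrolyses the neurotransmitter acetylcholine, also at the nerve endings of the gut wall. DPYSL3 encodes a collapsin response mediator protein, a cytoskeletal regulator that acts in growing axons downstream of semaphorin signals. RAMP1 is an accessory membrane protein that joins the receptor CALCRL, and together they form the receptor for the sensory neuropeptide CGRP.

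In this assay a pair of probes captures each transcript and a fluorescent barcode is counted without amplification. The values are normalized counts, and the barcode counts behind them, recovered by division through 1 factor per sample, summed to 867421 to 1187905 per WT sample and 1125125 to 1335466 per p21-/- sample over genes above the floor. The floor is the value that replaced low counts in each sample, 29.8 to 34.9 in WT and 25.7 to 33.8 in p21-/- samples, which is 2 SD above the mean of the 8 negative controls. A gene at the floor has only an upper limit, and 446 genes were above the floor in all 6 samples. CDKN1A itself had 4701 ± 834 normalized counts (SD, n = 3) in WT and 419 ± 37.0 (SD, n = 3) in p21-/- samples. It was lower in all p21-/- samples, in the direction of their labels, but at 460, 409 and 388 its transcript remained above the floor in each. Of the cell type markers, 0 of 16 neuronal and 0 of 7 glial genes were measured here, so a neural identity of the cells could not be examined. The neuroendocrine markers SCG2 and ENO2 did not pass the test between the lines (limma, Benjamini-Hochberg adjusted p = 0.131 and 0.962). Over the whole panel, 21.8% of genes passed the test as higher and 26.0% as lower in p21-/- cells. Of the 7 epithelial markers measured, 1 passed as higher and 5 as lower in p21-/- cells, and their summed level was 26790 to 31285 normalized counts in WT and 14545 to 15284 in p21-/- samples. Of 10 fibroblast markers, 3 passed as higher (VIM, FN1 and PDGFRB) and 1 as lower, and their summed level was 684 to 816 in WT and 29964 to 30968 in p21-/- samples. VIM alone carried this rise, and the other 9 summed to 560 to 655 in WT and 528 to 609 in p21-/- samples. The part of these marker changes in the results below was not tested. None of 5 endothelial markers passed, and the immune markers PTPRC and ITGAM never exceeded the floor. In bulk RNA, fewer expressing cells and less RNA per expressing cell cannot be told apart.

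**Figure D1:**
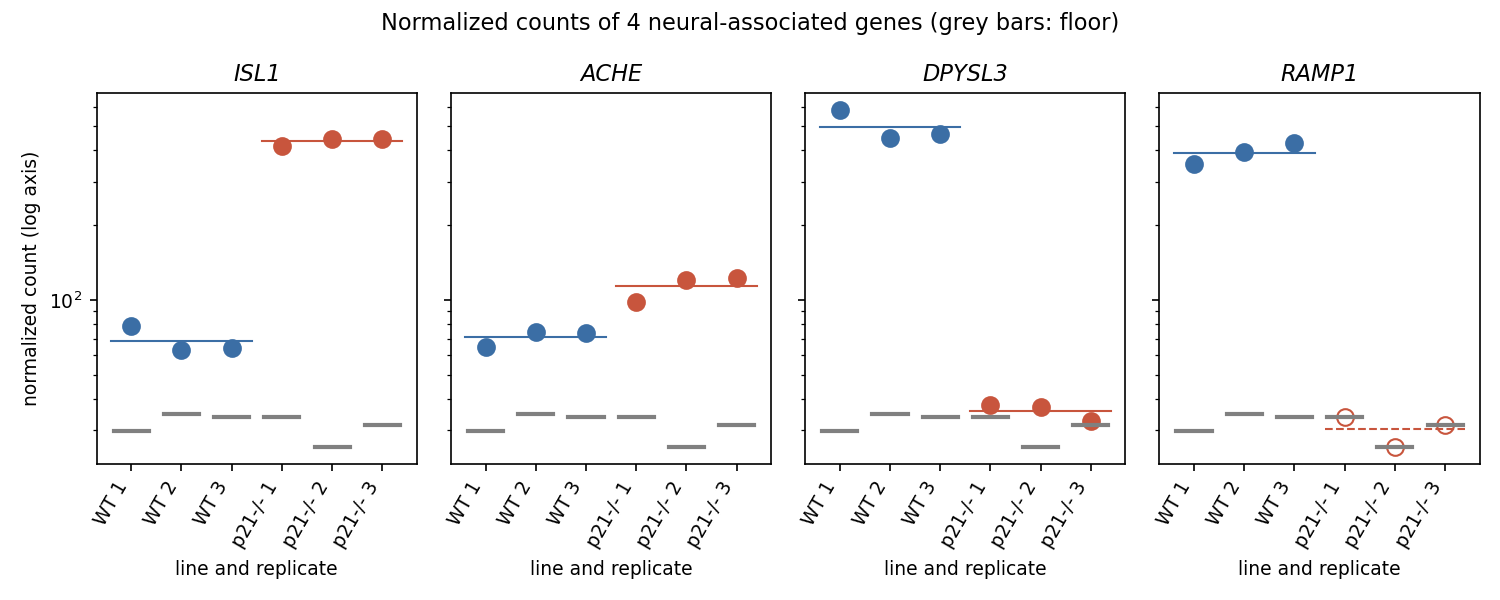
Normalized counts of ISL1, ACHE, DPYSL3 and RAMP1 in each of the 3 WT and 3 p21-/- samples, on a log axis. Filled points are values above the floor, open points are values at the floor, horizontal lines are the means of a line and grey bars are the floor of each sample. For every gene the samples of both lines lie apart, and RAMP1 is at the floor in all 3 p21-/- samples.

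Among the 4 genes, ISL1 was the gene with the largest rise. WT replicates 1, 2 and 3 held 78.4, 62.9 and 64.3 normalized counts of it, while p21-/- replicates 1, 2 and 3 held 419, 445 and 443. All p21-/- samples were high and all WT samples low, and the lowest p21-/- value was 5.34 times the highest WT value. The means were 68.5 ± 8.54 (SD, n = 3) and 436 ± 14.8 (SD, n = 3), a difference of 2.66 on the log2(value + 1) scale with a standard error of 0.156. WT samples gave 52, 56 and 55 barcode counts, while p21-/- samples gave 388, 489 and 501. ISL1 was above background in WT cells too, with barcode counts 1.60 to 1.74 times the floor. The higher normalized value of WT replicate 1 was thus not seen in the barcode counts, and this sample had the largest factor, 1.507 normalized counts per barcode against 1.123 and 1.169 in the other WT samples.

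ACHE changed least. WT samples held 64.8, 74.1 and 73.7 normalized counts of this gene, and the p21-/- values were 98.2, 120 and 123. The lines did not overlap, but the lowest p21-/- sample, replicate 1, was only 1.32 times the highest WT sample. The means were 70.9 ± 5.27 (SD, n = 3) and 114 ± 13.6 (SD, n = 3), a ratio of 1.61 and a log2 difference of 0.67 with a standard error of 0.171. Its barcode counts were 43 to 66 in WT and 91 to 139 in p21-/- samples, which is 1.44 to 1.89 and 2.69 to 5.14 times the floor. The size of its rise depended on the scaling of the samples. The 30 candidate housekeeping genes of the panel themselves had a median difference of 0.38, and 19 of them passed as higher and 3 as lower in p21-/- cells. After scaling to these candidates, the ACHE difference was 0.29 with a standard error of 0.159. When barcode counts were scaled to the positive controls alone it was 1.66, and the 446 genes above the floor then had a median difference of 0.95. Relative to the median of these genes, the ACHE difference was 0.72 as deposited, 0.72 with the housekeeping candidates and 0.71 with the positive controls. This match is no check, since scaling by 1 factor per sample moves all genes nearly alike. With quantile normalization, which is not such a scaling, the ACHE difference was 0.80 relative to the median.

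DPYSL3 fell to the edge of detection. WT samples held 580, 447 and 465 normalized counts, and p21-/- samples held 37.8, 37.3 and 32.7. The 3 WT samples were all high, with the lowest at 11.8 times the highest p21-/- value. The mean went from 498 ± 72.1 (SD, n = 3) to 35.9 ± 2.78 (SD, n = 3), which is 7.22% of the WT mean, with a log2 difference of -3.75 (standard error 0.169). In p21-/- samples the barcode counts were 35, 41 and 37, where the brightest negative control had 33, 25 and 31. The exact Poisson 95% intervals of these counts, 24.4 to 48.7, 29.4 to 55.6 and 26.1 to 51.0, cover counting error only, and those of replicates 1 and 3 reached below the brightest negative control of the same sample. DPYSL3 transcript was therefore hard to tell from background in p21-/- replicates 1 and 3 at this depth.

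RAMP1 was the gene of the 4 that no p21-/- sample showed above the floor. Its WT values were 354, 393 and 427 normalized counts, from 235, 350 and 365 barcode counts, which are 7.88 to 10.8 times the floor. The WT mean was 391 ± 36.4 (SD, n = 3), and each p21-/- sample was listed at its floor, 33.8, 25.7 and 31.4. The order of flooring and scaling is not given in the sources used here, so the upper limit was taken as the floor before or after scaling by the sample factor, whichever was higher, 36.5, 25.7 and 31.4 normalized counts. On the deposited scale, the geometric mean of the WT values over that of these limits put RAMP1 at least 12.6-fold lower in p21-/- cells. With the floor values put in place of measurements, the log2 difference was -3.65 (standard error 0.173). It was smaller, -2.73, when barcode counts were scaled to the positive controls, so the bound depends on the scaling.

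**Figure D2:**
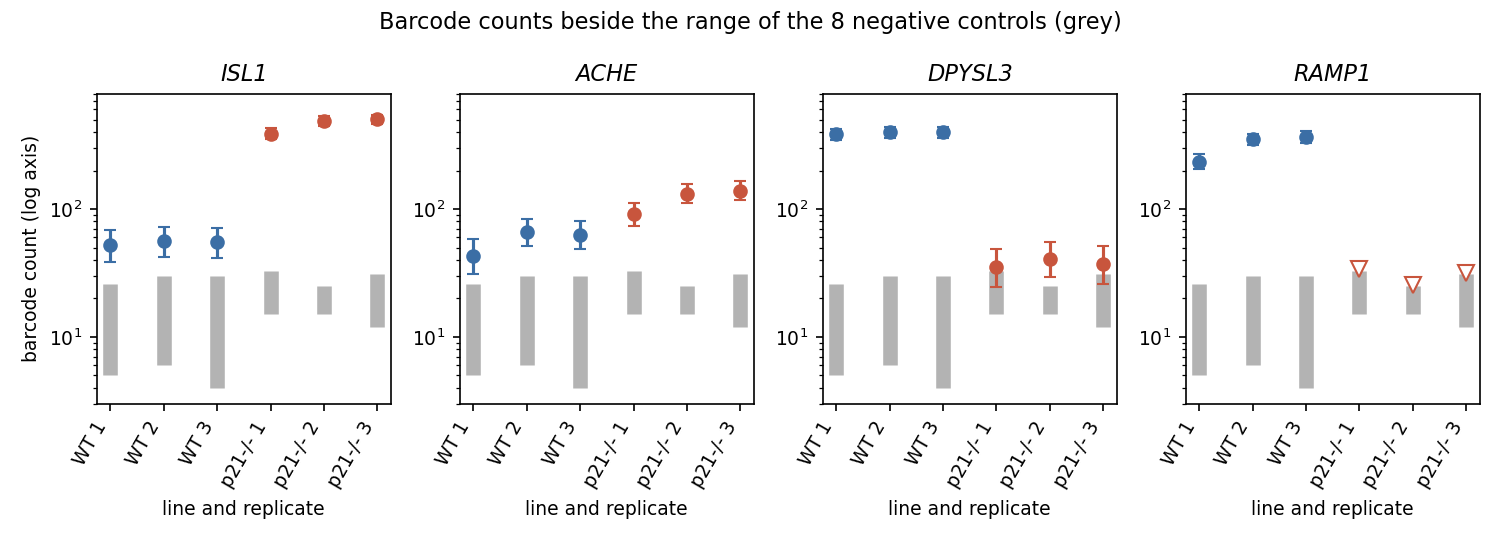
Barcode counts of the 4 genes per sample, on a log axis, with exact Poisson 95% intervals, beside the range of the 8 negative controls of the same sample in grey. Open triangles mark RAMP1 in p21-/- samples, where only the upper limit set by the floor is known. ISL1 and ACHE lay above the negative controls in all 6 samples, whereas the DPYSL3 intervals of p21-/- replicates 1 and 3 reach into their range.

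The falls of DPYSL3 and RAMP1 cannot be ordered, since the p21-/- level of RAMP1 has only an upper limit. The distance between the profiles of log2 values over the 6 samples, each centred on its own mean, was 2.47 between ISL1 and ACHE and 7.85 between ISL1 and DPYSL3. Replicate spread was moderate in all 4 genes, with coefficients of variation of 7.43% to 14.5% in WT and of 3.40% to 11.9% in p21-/- samples for the 3 genes above the floor, where the median gene of the panel had 11.0% and 4.36%. Beside the 21.8% and 26.0% of panel genes that passed as higher and as lower, the lines did not overlap for 25.5% of genes as higher and 26.8% as lower. The 4 genes belong to these shares by selection, and nothing is read from their count.

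**Figure D3:**
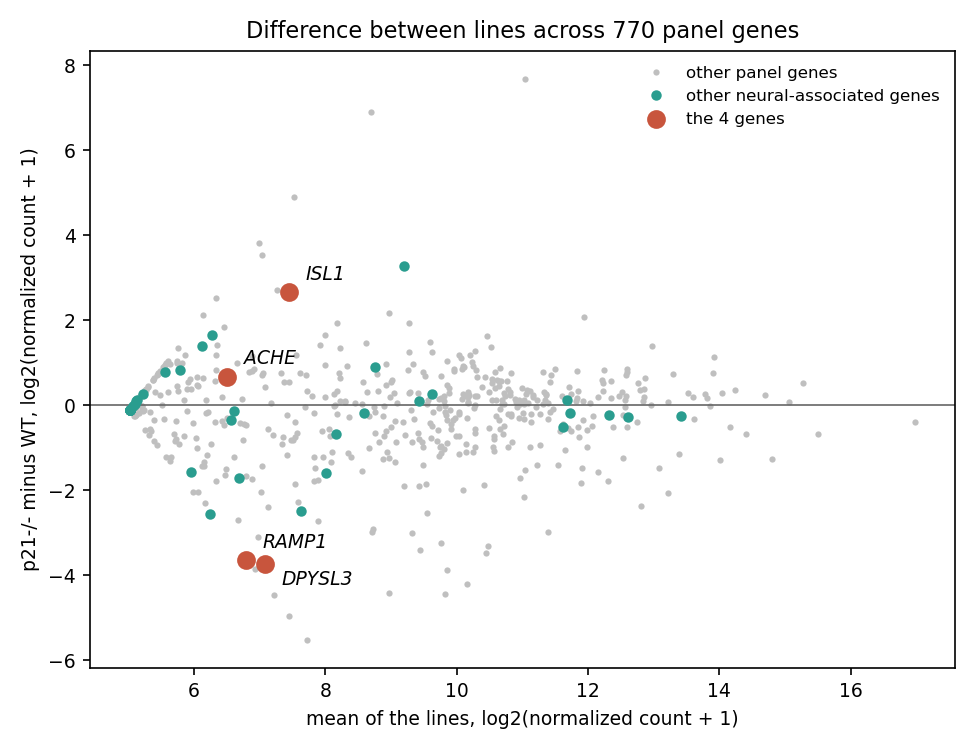
Difference between the lines (p21-/- minus WT) against the mean of the lines, both as log2(normalized count + 1), for the 770 panel genes. Each point is a gene, with the 4 genes in red, 37 other neural-associated genes in green and the remaining genes in grey. ISL1 lies at 2.66, ACHE at 0.67, RAMP1 at -3.65 and DPYSL3 at -3.75.

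Genes with the most similar profiles were sought for each gene over the 6 samples by the same distance, which describes likeness of pattern only. For ISL1 these were HLA-DPB1 at a distance of 0.469, a class II antigen presentation gene, WNT5A at 0.471, a secreted WNT ligand with no WT sample above the floor, and THBS1 at 0.697, a matricellular glycoprotein. For ACHE they were PTGDS at 0.102, a prostaglandin synthase that likewise no WT sample showed above the floor, the growth kinase MTOR at 0.203 and FCF1 at 0.251. FCF1, a ribosome biogenesis factor, is 1 of the 30 housekeeping candidates, and its difference of 0.70 was close to the 0.67 of ACHE. The epithelial transcription factor ELF3 at 0.579 and the cell junction protein PPL at 0.617 were among those for DPYSL3. CDKN1A at 0.494 and the hexokinase domain gene HKDC1 at 0.566 were among the most similar genes for RAMP1. All distances to RAMP1 have its floor values entered as levels.

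Promoter windows of 300 bases, from 250 before to 50 after an annotated transcription start (RefSeq, GRCh38.p14), were read for ISL1 (1 window), ACHE (3) and DPYSL3 (2). No window was available for RAMP1, which was therefore not searched. The windows of ISL1 and of the downstream DPYSL3 start are printed as examples of a gene that was higher and a gene that was lower in p21-/- cells. The windows were searched for the E-box letters CAGGTG or CACCTG, which are the same site on opposite strands and are known to be bound by repressors of the SNAI and ZEB families. Capitals mark this motif, and each sequence is given 5′ to 3′ on the strand of the gene.
ISL1, chr5:51383198-51383497, plus strand: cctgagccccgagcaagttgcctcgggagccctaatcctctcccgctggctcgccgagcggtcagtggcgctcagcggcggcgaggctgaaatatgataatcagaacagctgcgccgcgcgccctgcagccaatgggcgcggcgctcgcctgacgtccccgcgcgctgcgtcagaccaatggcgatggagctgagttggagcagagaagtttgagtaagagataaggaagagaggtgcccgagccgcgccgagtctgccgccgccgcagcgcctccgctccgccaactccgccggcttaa
DPYSL3, chr5:147453643-147453942, minus strand: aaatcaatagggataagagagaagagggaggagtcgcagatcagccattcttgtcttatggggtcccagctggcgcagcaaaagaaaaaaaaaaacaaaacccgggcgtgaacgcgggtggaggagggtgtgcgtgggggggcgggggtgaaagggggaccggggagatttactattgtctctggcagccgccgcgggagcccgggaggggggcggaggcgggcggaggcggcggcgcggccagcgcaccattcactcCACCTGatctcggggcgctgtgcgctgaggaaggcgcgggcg

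The DPYSL3 window held the motif once, as CACCTG starting 8 bases after the start, and its other window, chr5:147510019-147510318, held none. No match was found in the ISL1 window or in the 3 ACHE windows. The letters occurred in 20.6% of 35116 promoter windows of the genome and in 19.8% of 904 windows of 557 panel genes, so a match in a single window is common and is a description only. All 3 genes have starts rich in CpG. The ISL1 window held 36 CpG with 66.7% G and C, the DPYSL3 windows 29 and 27 with 64.3% each, and the ACHE windows 31, 24 and 21, where the median panel window had 19. Of the repressors, SNAI2 was not above the floor in any WT sample and averaged 477 ± 86.1 normalized counts (SD, n = 3) in p21-/- cells. ZEB1 averaged 79.3 ± 18.1 (SD, n = 3) in WT and 176 ± 10.5 (SD, n = 3) in p21-/- cells. Of the other family members, SNAI3 differed by -0.43 (limma, adjusted p = 0.0407), SNAI1 did not pass at -0.20 (adjusted p = 0.392) and ZEB2 never exceeded the floor. No binding was measured.

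The panel held 37 other genes of 7 lists of neural function, which together name 234 genes, those 4 included. Of the 37 genes, 6 passed as higher in p21-/- cells, 10 as lower and 21 did not pass (limma, adjusted p below 0.05 over 770 genes), with 9 at the floor in all 6 samples. That is 16.2% higher and 27.0% lower, beside 21.8% and 26.0% of the whole panel. The 17 of them above the floor in all samples had a median log2 difference of -0.24, and the 446 such genes of the panel had -0.05. Of the 16 genes that passed, 9 passed in the same direction in all 17 alternative settings. The count itself was 33 with the housekeeping candidates (6 higher), 25 with the floor multiplied by the sample factor (6 higher) and 35 with positive control scaling (31 higher), and each of these included the 9 genes at the floor in all samples.

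**Figure D4:**
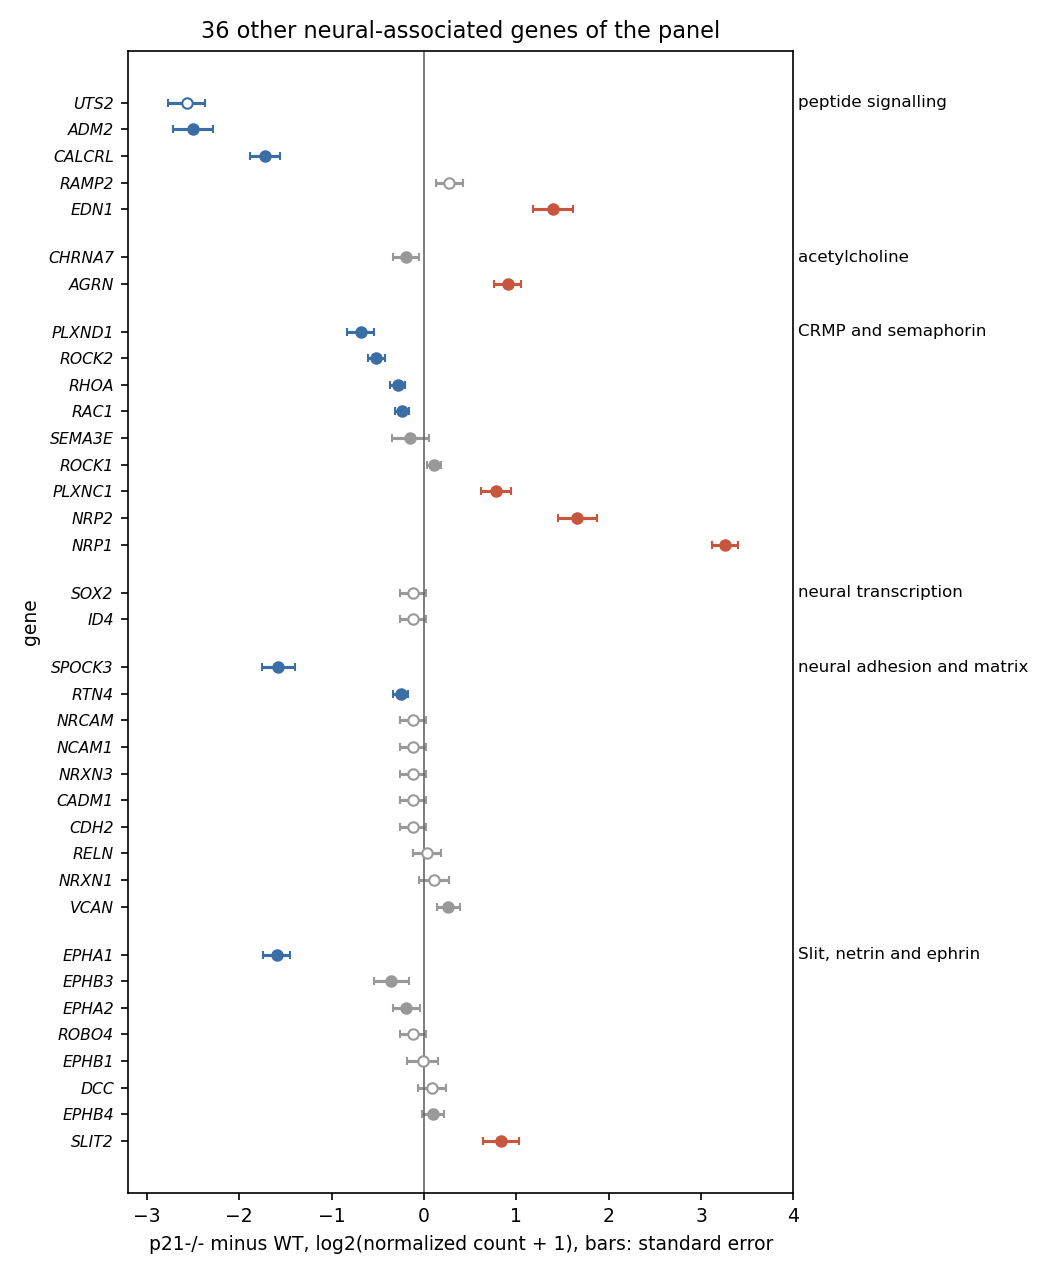
Log2 difference between the lines (p21-/- minus WT) for 36 of the 37 other neural-associated genes, grouped by list, with bars for the standard error. Red points passed the test as higher, blue points as lower and grey points did not pass, and open points mark genes at the floor in all samples of at least 1 line. NRP1 lies farthest to the right at 3.26 and UTS2 farthest to the left.

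Around RAMP1, 3 of 5 measured genes of peptide signalling were lower and 1 was higher in p21-/- cells, where 26.0% and 21.8% of the panel passed in these directions. CALCRL, the receptor that RAMP1 accompanies, had WT values of 190, 186 and 181 normalized counts and p21-/- values of 51.8, 59.2 and 56.6. All WT values were high and the lines did not overlap. Its log2 difference was -1.72 (standard error 0.162, adjusted p = 1.86e-07). ADM2, a ligand of CALCRL with RAMP proteins, fell from 488 ± 153 to 82.6 ± 10.7 (SD, n = 3, adjusted p = 5.89e-08). UTS2, the vasoactive peptide urotensin, averaged 187 ± 43.6 (SD, n = 3) in WT cells, and no p21-/- sample rose above the floor, so that by the same kind of limit it was at least 5.95-fold lower (adjusted p = 1.97e-08). EDN1, the peptide endothelin, rose from 43.2 ± 11.6, with 1 WT sample at the floor, to 113 ± 19.7 (SD, n = 3, adjusted p = 4.24e-05). The paralog RAMP2 had only floor values in WT cells and 45.3, 38.2 and 36.3 normalized counts in p21-/- cells, just above their floors, and did not pass at 0.27 (adjusted p = 0.156). It passed as higher with median scaling at 0.48 (adjusted p = 0.00834), with quantile normalization at 0.22 (adjusted p = 0.00590) and with positive control scaling at 0.92 (adjusted p = 1.48e-13), where the panel median was 0.95. Thus the transcripts of both parts of the CGRP receptor were lower in p21-/- cells, RAMP1 below detection and CALCRL at 30.1% of its WT mean. RAMP1 and UTS2 belong to the gene signature that the study drew from these samples, so their direction is no independent evidence.

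Around ACHE, 1 of 2 measured genes of acetylcholine signalling was higher, beside 21.8% of the panel. AGRN, agrin, which gathers acetylcholine receptors at the neuromuscular junction, rose from 319 ± 56.0 to 592 ± 39.4 (SD, n = 3), a log2 difference of 0.90 (standard error 0.142, adjusted p = 4.82e-05). CHRNA7, a nicotinic acetylcholine receptor subunit, had 415 ± 63.0 and 360 ± 36.4 (SD, n = 3), and the lines overlapped (adjusted p = 0.304).

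Around DPYSL3, 9 genes of the semaphorin pathway were measured, 3 higher and 4 lower, which is 33.3% and 44.4% beside 21.8% and 26.0% of the panel. Only 2 of them were lower with median scaling or without p21-/- replicate 3, where RHOA and the GTPase RAC1 did not pass. RAC1 also did not pass with the replicate block or a constant prior variance. With the housekeeping candidates 3 were higher and 6 lower, and with positive control scaling 8 were higher and none lower. The neuropilins, which are semaphorin receptors, were both higher: NRP1 had WT values of 155, 179 and 241 normalized counts and p21-/- values of 1775, 1817 and 1849. These values did not overlap, and the log2 difference of NRP1 was 3.26 (standard error 0.141, adjusted p = 1.75e-11). NRP2 rose from 44.0 ± 12.6, with 1 WT sample at the floor, to 137 ± 11.2 (SD, n = 3, adjusted p = 4.78e-06). The study's signature holds both neuropilins as well. PLXNC1, a plexin, rose by 0.78 with 2 WT samples at the floor (adjusted p = 0.000788), whereas the plexin PLXND1 fell by 0.68 (adjusted p = 0.000816). Of the cytoskeletal effectors, the kinase ROCK2 fell by 0.51 (adjusted p = 0.000121), while the GTPase RHOA had a smaller difference of -0.29 (adjusted p = 0.00583, and 0.0513 without p21-/- replicate 3), which was -0.07 with median scaling (adjusted p = 0.552). Under positive control scaling the direction turned for all 3 of these lower genes, with RHOA at 0.71 and ROCK2 at 0.48 passing as higher (adjusted p = 0.00108 and 0.0306) and PLXND1 at 0.31 not passing (adjusted p = 0.322). The panel median moved to 0.95 in that setting. Relative to it RHOA, ROCK2 and PLXND1 were at -0.23, -0.46 and -0.63, beside -0.24, -0.46 and -0.63 as deposited. This match is no check, since scaling by 1 factor per sample moves all genes nearly alike. With quantile normalization RHOA, ROCK2 and PLXND1 were at -0.41, -0.35 and -0.45 relative to its median. ROCK2 also did not pass with quantile normalization (adjusted p = 0.0741). So DPYSL3 and the neuropilins differed in opposite directions between the lines.

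Around ISL1, the transcription factors SOX2 and ID4, the only other genes measured of the neural transcription list, did not exceed the floor in any of the 6 samples. ISL1 was therefore the only measured gene of that list above the floor. Among 10 neural adhesion and matrix genes, 2 were lower and none was higher, beside 26.0% and 21.8% of the panel. SPOCK3, a testican of the extracellular matrix, had 107 ± 17.9 (SD, n = 3) in WT and reached above the floor in 1 p21-/- sample (adjusted p = 1.53e-06), and RTN4 differed by -0.25 (adjusted p = 0.0147, and 0.0615 to 0.0870 when any p21-/- sample was left out). The RTN4 difference did not pass with median scaling (-0.04, adjusted p = 0.6999), quantile normalization (-0.16, adjusted p = 0.185) or a constant prior variance (adjusted p = 0.0639). NRCAM, NCAM1, NRXN3, CADM1 and CDH2 were at the floor in all 6 samples. Among 8 axon guidance genes, 1 was higher and 1 was lower. SLIT2, a guidance ligand, rose from 41.2 to 73.2 normalized counts with 1 WT sample at the floor (adjusted p = 0.00188, not passing in an ordinary linear model), and EPHA1, an ephrin receptor, fell from 451 ± 64.8 to 148 ± 11.1 (SD, n = 3, adjusted p = 1.77e-07), though under positive control scaling RTN4 passed as higher, at 0.75 (adjusted p = 0.000687), and EPHA1 did not pass, at -0.60 (adjusted p = 0.0538). Relative to the panel median in that setting they were at -0.20 and -1.55, beside -0.20 and -1.55 as deposited. This match too is no check, as scaling by 1 factor per sample moves all genes nearly alike. With quantile normalization RTN4 and EPHA1 were at -0.29 and -1.38 relative to its median.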

How the data were processed

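Total RNA from 3 WT and 3 p21-/- samples was counted with the NanoString panel, and the deposited labels gave the groups. The authors normalized the gene counts in nSolver 3.0 to positive controls and housekeeping genes and deposited the result, here treated as a signal. In these values the 30 housekeeping candidates were not level between the lines, with a median log2 difference of 0.38, and the reason was not tested. The 14 control entries are raw counts. Values of low genes had been replaced by a floor, which was not scaled. The factor per sample was found from values under 500, of which 100% were whole within 0.1 count. Depth is the total barcode count, and intervals cover counting error only.

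The 4 genes, the lists and the tests were chosen with earlier results of these data known. Values were fitted as log2(value + 1), which understates changes of low genes, by limma 3.58.1 (R 4.3.3) with an intensity trend. No covariate was used, tests were two-sided, and p-values were adjusted over 770 genes by Benjamini-Hochberg. The fit was tested on simulated data. NanoStringDiff, which the study used on raw counts, was not used here. With 3 samples against 3, an exact permutation test cannot give a two-sided p below 0.1, so none was run.

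Named besides the 4 genes were, per list, up to 3 rises and 3 falls past the test and the partners of the 4 genes. Also named, for each gene, were the 3 rows with the most similar profile, the 4 genes left out. Single genes among these are not reported here. Other genes were named after their values were seen. RAMP3, ADM, BCHE, DPYSL2, LDB1 and LMO2 were not analysed here. The alternatives comprised pseudocounts of 0.5 and 10, a filter at a mean of 20, 3 other scalings, the replicate block, other variance models and leaving out each sample. The floor multiplied by the sample factor and the positive control scaling were added after seeing the data.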

Additional observations from a re-analysis of the deposited data

How the results depend on the processing

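Under all alternatives run, the differences of ISL1 and ACHE stayed positive and those of DPYSL3 and RAMP1 negative. Their sizes moved as follows, on the log2 scale. With a pseudocount of 10, ISL1 was 2.51, DPYSL3 -3.46 and RAMP1 -3.32. Median scaling gave 2.87 for ISL1, 0.88 for ACHE, -3.54 for DPYSL3 and -3.44 for RAMP1. Quantile normalization gave 2.85 for ISL1, 0.93 for ACHE and -3.47 for RAMP1. Scaling to the housekeeping candidates gave 2.27, 0.29, -4.13 and -4.03 for ISL1, ACHE, DPYSL3 and RAMP1, with a standard error of 0.159 for ACHE. Positive control scaling of barcode counts gave 3.64, 1.66, -2.76 and -2.73. The median difference of the 446 genes above the floor was -0.05 as deposited, 0.16 and 0.13 with median scaling and quantile normalization, -0.43 with the housekeeping candidates and 0.95 with the positive controls. Without single samples, ISL1 ranged from 2.60 to 2.76, ACHE from 0.61 to 0.77, DPYSL3 from -3.82 to -3.63 and RAMP1 from -3.73 to -3.54. All these RAMP1 sizes enter floor values as p21-/- levels, so they are not measured differences.

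The count of other neural-associated genes that passed, 16 (37.5% higher), was 13 to 17 without single samples, 33 with the housekeeping candidates, 25 with the floor multiplied by the sample factor and 35 with positive control scaling. The share of higher genes was 58.8% with median scaling and 55.6% with quantile normalization, and over all genes it was 45.7% as deposited, 59.8% and 58.0%. Over all genes the count, 368, was 332 to 395 without single samples, and 626, 557 and 665 under the same 3 settings, each including 167 genes at the floor in all samples, where only the floor had been scaled. The higher share over all genes was then 15.5%, 29.8% and 91.0%. With the replicate block, 15 neural-associated genes and 363 of all genes passed. RAC1 did not pass with the block, nor with a constant prior variance. Samples of the same number correlated at 0.076, -0.054 and 0.052, so no shared deviation of such samples was seen. Whether they were handled together cannot be told from these values. The fits with a constant prior variance and an ordinary linear model share the main differences. SLIT2 did not pass with an ordinary linear model, and RHOA, RAC1 and RTN4 did not pass with median scaling, while RHOA, ROCK2, RAC1 and RTN4 passed as higher with positive control scaling. The limma adjusted p of these 3 genes also rose above the threshold when single p21-/- samples were left out: RHOA to 0.0513 without replicate 3, RAC1 to between 0.0593 and 0.123 when any 1 of them was left out, and RTN4 likewise to between 0.0615 and 0.0870. Low genes are limited by the floor where they lie at it, and by counting error above it.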
